A study of Bos taurus with 129 samples.

Results

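The transcripts of 7 genes of cholesterol handling were followed in the blood of beef steers over the first weeks after arrival at a backgrounding facility. They were chosen by symbol, as the rows of the count table named HMGCS1, IDI1, FDFT1, SQLE, INSIG1, ABCA1 and ABCG1. All 7 symbols were found among the 32395 genes of the table, and all 7 were among the 18937 genes tested. Cells make cholesterol from acetyl-CoA through mevalonate, the isoprenoids, squalene and the sterol intermediates, and the genes of this pathway are switched on together by the SREBP2 transcription factor when membrane sterols are low. INSIG1 is an endoplasmic reticulum protein that holds SREBP in place when sterols are plentiful, and its own gene is a target of SREBP. Surplus cholesterol is exported to apolipoproteins by the transporters ABCA1 and ABCG1, whose genes are switched on by the oxysterol receptors of the LXR family. In blood, monocytes and the macrophages they become are best known for this export, and all growing or dividing leukocytes need sterol for new membranes.

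Whole blood was drawn from 26 crossbred beef steers at enrollment (day 0, the day after arrival per the study's methods) and at days 13, 28, 45 and 60. This gave 59 libraries of healthy and 70 of BRD cattle. Of the steers, 12 carried the label of no disease, called healthy here, and 14 the label of disease. The labels do not name the disease, which is taken from the study's methods as bovine respiratory disease (BRD), the pneumonia complex of newly received cattle. The INR cattle (4 healthy and 7 BRD) received copper, cobalt, manganese and zinc as inorganic sulfates, the AAC cattle (4 healthy and 4 BRD) received amino acid-complexed sources in the feed, and the COMBO cattle (4 healthy and 3 BRD) received the complexed sources together with an oral trace mineral drench before shipment, at day 0 and with any treatment for illness. All cattle had been transported over a long distance, and all were vaccinated and dewormed with doramectin at day 0 and vaccinated again between days 13 and 28, so that day, age, recovery from transport, vaccination and the new diet cannot be told apart. The day on which BRD was diagnosed was not used here, so a BRD library could precede or follow the illness. The library of healthy AAC animal 48 at day 13 had been removed by the authors, which left 25 animals at that day. At enrollment the AAC cattle stood in pens 2 and 8 and the INR cattle in pens 3, 4 and 7, and pen 7 held BRD cattle only among those sampled. The COMBO healthy cattle stood in pen 5 and the COMBO BRD cattle in pen 6, so supplement and enrollment pen cannot be told apart in any group, nor label and enrollment pen within COMBO. Per the study's methods the steers were later moved between pens at set intervals. After enrollment a pen therefore stands for the group of animals that entered it and not for the place.

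Levels are given as CPM, the counts of a gene scaled to a common library total with TMM factors. Library totals ranged from 31613545 to 61692136 counts with a median of 44268685. Comparisons were made with edgeR's quasi-likelihood test over all 18937 genes, and a gene was called at a false discovery rate (FDR, Benjamini-Hochberg) under 0.1. Changes between days were fitted with each animal as a block, and differences between animals were fitted on the means of the 30 combinations of label, supplement and day. Log2 fold changes are given with their standard error (SE).

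The blood character of the libraries was checked with marker genes. At day 0 the summed level of 6 B cell markers had a median of 1961 CPM, that of 8 T cell markers 1581.5 CPM, that of 6 monocyte markers 1071 CPM and that of 5 neutrophil markers 918 CPM. In whole blood, fewer cells of a type and less RNA per cell cannot be told apart, which holds for every comparison below.

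Transcripts of the synthesis genes rose between day 0 and day 13. SQLE, IDI1, FDFT1 and INSIG1 rose by fitted averages of 1.39-fold to 1.54-fold and were higher in 24 or all of the 25 animals with both days, HMGCS1 rose less evenly, ABCA1 fell, and ABCG1 did not pass the test. In all cattle, 5 of the 7 genes were called higher at day 13, where 17.3% of all tested genes were called higher, and 1 was called lower, where 17.1% of all genes were called lower. The 7 genes were chosen with earlier results of these data known. The shares of all genes, here and below, therefore give the background and are no test of the set. Many blood transcripts moved in both directions over these days, and the median change over all genes was 0.007 on the log2 scale.

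**Figure D1:**
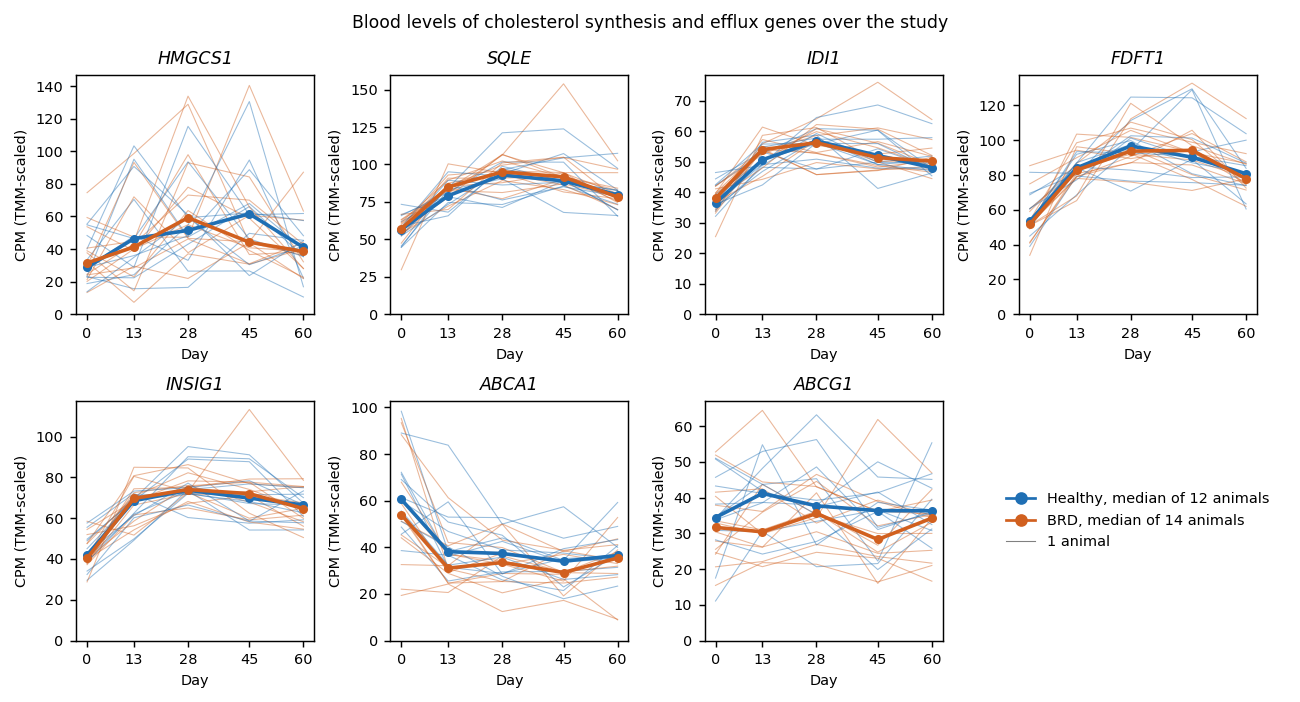
Level of each of the 7 genes in CPM (vertical axis, from 0) against day (horizontal axis). Thin lines are single animals, and thick lines with points are the medians of the healthy (blue) and BRD (orange) cattle. The medians of SQLE, IDI1, FDFT1 and INSIG1 step up between day 0 and day 13 in both labels, that of ABCA1 steps down, and the single animals of HMGCS1 spread widely at every later day.

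SQLE encodes squalene epoxidase, which makes the first oxygenated intermediate of the sterol branch. Over the 26 animals at day 0, SQLE had a lowest level of 29.74, a median of 57.2 and a highest level of 73.4 CPM. At day 13 these values were 65.7, 83 and 100.4 CPM. Only the lower end of day 13 overlapped the upper end of day 0. SQLE was higher at day 13 than at day 0 in 24 of 25 animals, and the change was 0.56 on the log2 scale (SE 0.053, edgeR FDR 5.43e-14). The ratio of day 13 to day 0 within an animal ranged from 0.929 in animal 50 to 3.38 in animal 43, with a median of 1.43. Animal 43 had the lowest day 0 level of all animals, and IDI1, FDFT1 and INSIG1 also had their highest ratio in it. The median of SQLE was highest at day 28, at 94.3 CPM (range 71.3 to 121.1). It stood at 90.8 CPM at day 45 (range 68 to 154) and 78.7 CPM at day 60 (range 65.5 to 107.5). The means of days 28 and 45 were 93.5 and 95 CPM, and 14 of 26 animals were higher at day 45 than at day 28.

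IDI1 encodes the isomerase that makes dimethylallyl diphosphate, the starter unit of isoprenoid chains. Its levels at day 0 ran from 25.4 through a median of 37.28 to 46.42 CPM, and at day 13 from 42.35 through 53.2 to 61.3 CPM. All 25 animals were higher at day 13, with within-animal ratios from 1.05 to 2.31. The change was 0.47 (SE 0.042, edgeR FDR 6.42e-15). IDI1 had the smallest spread of the 7 genes, with an SD of 0.16 on the log2 scale between animals of the same group and day, against 0.39 for the median tested gene. Its median level was 56.6 CPM at day 28, 51.3 CPM at day 45 and 49.2 CPM at day 60.

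FDFT1 encodes squalene synthase, which commits isoprenoids to the sterol branch. At day 0 its lowest, median and highest levels were 33.9, 52.4 and 85.4 CPM, and at day 13 they were 65.302, 83.6 and 103.544 CPM. The ranges overlapped, but 24 of 25 animals were higher at day 13, and the remaining animal, 50, had a ratio of 0.992. FDFT1 rose by 0.61 on the log2 scale (SE 0.059, edgeR FDR 1.12e-13). The median stood at 95.6 CPM at day 28, 93.1 CPM at day 45 and 78.7 CPM at day 60.

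INSIG1, the regulator that is also a target of the pathway it restrains, had a day 0 range of 28.7 to 58.5 CPM around a median of 40.8 CPM. At day 13 it ranged from 49.2 to 84.98 CPM around a median of 68.6 CPM. It was higher in 24 of 25 animals, with ratios from 0.884 in animal 31 to 2.96, and the change was 0.63 (SE 0.058, edgeR FDR 3.27e-14). The later medians were 73.7, 71.3 and 65.7 CPM at days 28, 45 and 60.

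HMGCS1 encodes the cytosolic HMG-CoA synthase, an early enzyme of the mevalonate pathway. Its levels ran from 13.4 through a median of 30.1 to 74.6 CPM at day 0 and from 7.32 through 42.40 to 103.3 CPM at day 13. Both days overlapped over most of their ranges, and 16 of 25 animals were higher and 9 lower at day 13. Within animals the ratio of day 13 to day 0 ran from 0.228 to 4.06 with a median of 1.29. The change of 0.48 was close to that of the other genes of synthesis, but its SE was 0.212 and its edgeR FDR was 0.08. The call was lost in 12 of the 26 fits that left out 1 animal and in the fit of the libraries of these days alone, where the change was 0.34 (edgeR FDR 0.284). HMGCS1 had the largest spread of the 7 genes, with an SD of 0.78 on the log2 scale between animals of the same group and day, larger than in 78.2% of all tested genes. For SQLE, FDFT1 and INSIG1 this SD was 0.21, 0.22 and 0.22.

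**Figure D2:**
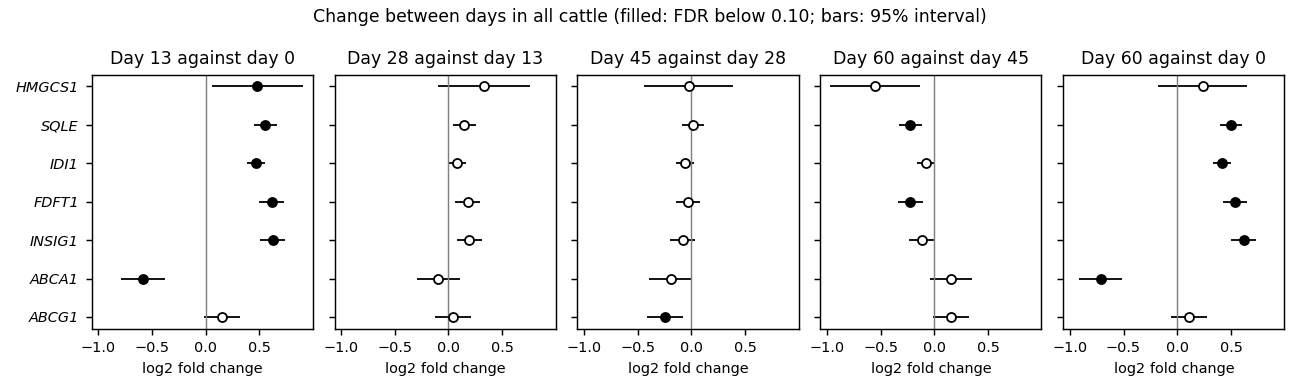
Log2 fold change (horizontal axis) of each gene (vertical axis) between days in all cattle, with 95% intervals, and filled points for an FDR under 0.1. The 4 synthesis genes of narrow interval lie near 0.5 at day 13 and at day 60 against day 0, and ABCA1 lies below 0 at both.

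ABCA1 hands cholesterol and phospholipid to lipid-poor apolipoprotein A-I. It was the one gene of the 7 called lower at day 13. At day 0 its lowest, median and highest levels were 19.35, 57.2 and 98.38 CPM, and at day 13 they were 20.6, 36.1 and 83.8 CPM. The ranges overlapped because animals differed widely at day 0, and within animals the level was lower at day 13 in 23 of 25. The change was -0.58 (SE 0.102, edgeR FDR 8.31e-06), and ratios of day 13 to day 0 ran from 0.322 in animal 43 to 1.305 in animal 42. Later medians were 35 CPM at day 28, 29.5 CPM at day 45 and 36.3 CPM at day 60, all below day 0. The animals farthest below their own day 0 level at day 60 included animal 40, with a ratio of 0.201. The library of animal 40 at day 60 had the lowest RNA integrity of the study, and ABCA1 fell by 0.71 between day 0 and day 60 in all cattle with it (SE 0.1, edgeR FDR 4.69e-08) and by 0.68 without it (SE 0.093, edgeR FDR 2.03e-08).

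ABCG1 passes cholesterol on to lipid-bearing particles. It had a day 0 range of 11.1 to 52.8 CPM around a median of 33.7 CPM and a day 13 range of 20.7 to 64.5 CPM around a median of 36.1 CPM. Animals moved both ways, with 13 of 25 higher and 12 lower. The change of 0.15 did not pass the test (SE 0.085, edgeR FDR 0.176). The medians of the later days were 36.05, 31.9 and 35.15 CPM.

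Between day 13 and day 28 none of the 7 genes was called by edgeR, where 1.04% of all genes were called, and DESeq2 called 1, INSIG1 (FDR 0.086). At an unadjusted edgeR p under 0.05, 3 of the 7 differed, beside 2428 of all genes. INSIG1 had a log2 fold change of 0.19, FDFT1 of 0.18 and SQLE of 0.15. INSIG1 was higher at day 28 in 22 of 25 animals. Without BRD animal 43, whose day 0 levels of SQLE and IDI1 were the lowest of all, these 3 genes were called. Between day 28 and day 45, ABCG1 fell by 0.25 on the log2 scale (SE 0.084, edgeR FDR 0.026), the 1 gene of the 7 called, where 27.6% of all genes were called in either direction. It was lower at day 45 in 17 of 26 animals, and the call was lost without BRD COMBO animal 18.

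Between day 45 and day 60 a pair of enzymes turned down. SQLE fell by 0.22 (SE 0.052, edgeR FDR 0.00553) and was lower at day 60 in 25 of 26 animals. FDFT1 fell by 0.23 (SE 0.058, edgeR FDR 0.0126) and was lower in 23 of 26 animals. These 2 of 7 genes stood against 3.41% of all genes called lower between these days. HMGCS1 had an estimate of -0.55, was lower in 19 of 26 animals and did not pass the test (SE 0.209, edgeR FDR 0.113), while DESeq2 gave it an FDR of 0.0737.

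At day 60 the 4 synthesis genes were still above day 0. Against day 0, 4 of the 7 genes were called higher, where 15.6% of all genes were, and 1 lower, where 15.1% were. The log2 fold changes were 0.50 for SQLE, 0.42 for IDI1, 0.54 for FDFT1 and 0.62 for INSIG1, with SEs of 0.042 to 0.058. IDI1 and INSIG1 were higher at day 60 than at day 0 in all 26 animals, SQLE in 25 and FDFT1 in 24, and ABCA1 was lower in 23. HMGCS1 (0.24, SE 0.209, edgeR FDR 0.447) and ABCG1 (0.11, SE 0.084, edgeR FDR 0.384) were not called.

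The order of the days can be read from the medians. For SQLE, IDI1, FDFT1, INSIG1 and HMGCS1 day 0 was the lowest of the 5 days and day 28 the highest. For ABCA1 day 0 was the highest and day 45 the lowest. Of the neighbours in these orders, only day 0 was set apart by edgeR from the next day in time for IDI1 and INSIG1, while SQLE and FDFT1 also differed between days 45 and 60.

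The same comparisons were made within each label. In healthy cattle SQLE, IDI1, FDFT1 and INSIG1 were called higher at day 13 than at day 0, where 4.93% of all genes were, and ABCA1 was called lower, where 4.48% were. Their log2 fold changes were 0.54, 0.44, 0.60, 0.61 and -0.56 in that order. In BRD cattle the same 4 genes were called higher, where 11.2% of all genes were, and ABCA1 lower, where 11.4% were, with log2 fold changes of 0.57, 0.51, 0.63, 0.64 and -0.60. Healthy and BRD cattle are different animals, but they were in the same fit and shared the days, the transport and the vaccinations. The genes were also chosen with earlier results of these data known. The same calls in both labels are therefore no independent test of these genes.

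In BRD cattle SQLE had a lowest, median and highest level of 29.74, 57.2 and 66.7 CPM at day 0 and of 69.9, 84.97 and 100.4 CPM at day 13, and the days did not overlap. In healthy cattle these levels were 44.6, 56.5 and 73.4 CPM at day 0 and 65.7, 79.1 and 95.11 CPM at day 13, and they overlapped. IDI1 likewise did not overlap between the days in BRD cattle, with a highest level of 42.01 CPM at day 0 and a lowest of 44.2 CPM at day 13. FDFT1, INSIG1, HMGCS1, ABCA1 and ABCG1 overlapped between these days in BRD cattle, and all 7 genes did in healthy cattle. Neither SQLE nor IDI1 was called for a difference of the changes between labels, as given below. The share of all tested genes whose ranges did not overlap was not counted. The medians of SQLE, IDI1, FDFT1 and INSIG1 were higher at day 13 than at day 0 in all 6 combinations of label and supplement. ABCA1 had a lower median at day 13 in all 6, but in BRD COMBO, which held 3 animals, the medians were 32.6 and 32.1 CPM.

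At day 60 against day 0 the calls were again SQLE, IDI1, FDFT1 and INSIG1 higher and ABCA1 lower in each label. In healthy cattle 6.24% of all genes were called higher and 6.12% lower, and ABCA1 stood at -0.73 (SE 0.142, edgeR FDR 0.0002). In BRD cattle 7.85% were called higher and 8.71% lower, and ABCA1 stood at -0.69 (SE 0.141, edgeR FDR 0.000313).

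Between the later days, fewer of the 7 genes were called within a label. Between days 13 and 28 edgeR called none, with 0.037% of all genes called in healthy and 0.565% in BRD cattle. DESeq2 called none of them either. At an unadjusted edgeR p under 0.05 there was 1 of the 7 in healthy cattle, beside 1000 of all genes. In BRD cattle there were 3 of the 7, beside 2264 of all genes. Between days 28 and 45 ABCG1 was called lower in BRD cattle (-0.34, SE 0.118, edgeR FDR 0.0571), where 6.4% of all genes were, and in healthy cattle, where 6.61% of all genes were called lower, its change was -0.15 (SE 0.119, edgeR FDR 0.486). In healthy cattle no gene of the 7 had an unadjusted edgeR p under 0.05 between these days, beside 4190 of all genes, and DESeq2 called none of the 7. Between days 45 and 60 SQLE was called lower in BRD cattle (-0.22, SE 0.072, edgeR FDR 0.09), where 1.68% of all genes were, and without the day 60 library of animal 40 its FDR was 0.104. In healthy cattle the change of SQLE was -0.23 (SE 0.074, edgeR FDR 0.633), where no gene (0%) was called lower at this FDR and 1336 genes differed at an unadjusted p under 0.05. Of the 7 genes, 3 had such a p in healthy cattle, and DESeq2 called none of the 7 and 47 of all genes.

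The change itself was then compared between labels. None of the 7 genes changed differently in BRD and healthy cattle at an FDR under 0.1, nor did any of the 18937 tested genes (0%) in the 5 pairs of days. At an unadjusted edgeR p under 0.05 there were 0 of the 7 genes in each pair of days and 472 to 843 of all genes, and DESeq2 called 0 of the 7 and 36 to 60 of all genes. For SQLE the difference of the changes (BRD minus healthy) lay between -0.02 and 0.03 on the log2 scale over the 5 pairs of days, and the 95% intervals, which could be computed in 4 of the 5 pairs, stayed within -0.22 and 0.24. For IDI1 these intervals stayed within -0.24 and 0.24, for FDFT1 within -0.33 and 0.29 and for INSIG1 within -0.30 and 0.27. For ABCA1 they reached from -0.53 to 0.62 and for HMGCS1 from -1.57 to 1.55, so that a difference as large as the change itself was not detectable for HMGCS1.

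None of the 7 genes was called between BRD and healthy cattle at any day. The share of all genes called was 0.0158% at day 0, 0% at day 13, 0.00528% at day 28, 0% at day 45 and 0.00528% at day 60, so that few genes passed in this comparison at all. The 3 genes called at day 0 became 0 to 303 when 1 animal was left out, the 303 without BRD COMBO animal 16. At an unadjusted edgeR p under 0.05 there was 1 of the 7 genes, ABCA1 at day 13, and between 689 and 1635 of all genes a day. DESeq2 called 0 of the 7 and 33 to 99 of all genes, and limma with voom called 0 of the 7 and 0 to 8 of all genes. Over the 5 days the log2 fold change of SQLE lay between 0.02 and 0.08, that of IDI1 between -0.03 and 0.06, that of FDFT1 between -0.06 and 0.03 and that of INSIG1 between -0.03 and 0.06. The 95% intervals of these 4 genes stayed within -0.24 and 0.25. HMGCS1 lay between -0.23 and 0.41, with intervals that reached from -0.83 to 1.02, which include a difference as large as its change at day 13. The labels were also compared in the pens that held both, with the enrollment pen as a term of the fit. This fit held no COMBO cattle and left out the INR pen with BRD cattle only, so it had fewer animals. In it SQLE ran from -0.09 at day 0 to 0.19 at day 60, IDI1 from -0.06 to 0.13 and FDFT1 from -0.10 to 0.09. INSIG1 ran from 0.04 to 0.18 and HMGCS1 from -0.54 to 0.24, and none of these genes was called.

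ABCA1 and ABCG1 had lower estimates in BRD cattle at all 5 days. At day 13 ABCA1 had a lowest, median and highest level of 25.53, 38.1 and 83.8 CPM in the 11 healthy animals and 20.6, 31.07 and 61.3 CPM in the 14 BRD animals. The ranges overlapped over most of their length, and the log2 fold change was -0.46 (SE 0.203, unadjusted p = 0.0261 and FDR 1 by edgeR). At the other days it lay between -0.14 and -0.31. For ABCG1 at day 13 the healthy levels were 24.2, 41.2 and 54.8 CPM and the BRD levels 20.7, 30.4 and 64.5 CPM, with a log2 fold change of -0.32 (SE 0.182, edgeR FDR 1). In the same fit within pens, which held no COMBO cattle, 1325 genes were called at day 0 and none of the 7. There ABCA1 stood at -0.53 at day 13 (SE 0.271, edgeR FDR 0.38) and at 0.01 at day 60, where its sign thus differed, and ABCG1 stood between -0.53 at day 13 and -0.16 at day 60. The 5 days are the same animals drawn again, so that one sign at all 5 days is not 5 separate observations.

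**Figure D3:**
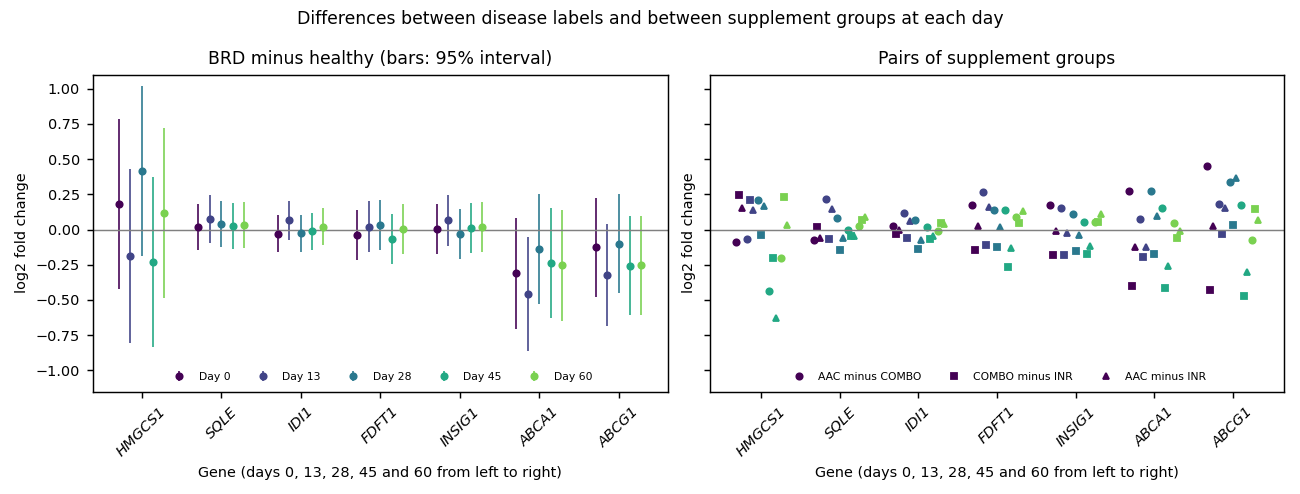
Log2 fold change (vertical axis) of each gene between labels (left, BRD minus healthy, with 95% intervals) and between pairs of supplement groups (right, without intervals), with the 5 days side by side and coloured by day. No point in either panel passed an FDR of 0.1, and the points of ABCA1 and ABCG1 lie below 0 at all 5 days on the left.

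The supplements were compared over both labels at each day. None of the 7 genes was called in any of the 15 comparisons, and 3 of their tests had an unadjusted p under 0.05. These were FDFT1 between AAC and COMBO at day 13 (0.26) and between COMBO and INR at day 45 (-0.27), and ABCG1 between COMBO and INR at day 45 (-0.47). DESeq2 and limma with voom called 0 of the 7 in all 15 comparisons. The edgeR intervals, at the level used between labels, reached from -1.34 to 0.98 for HMGCS1 and from -0.9 to 0.78 for ABCA1. For ABCG1 they reached from -0.91 to 0.91. For these genes, differences as large as their changes between days 0 and 13 were thus not excluded. The intervals stayed within -0.35 and 0.44 for SQLE and within -0.3 and 0.3 for IDI1. They stayed within -0.49 and 0.5 for FDFT1 and within -0.4 and 0.4 for INSIG1. Over all genes, 711 to 2532 had an unadjusted edgeR p under 0.05 in a comparison, and DESeq2 called 20 to 428. Between AAC and COMBO, 0.565% of all genes were called at day 0, 0.929% at day 13, 0.0317% at day 28 and 0% at days 45 and 60. These counts hung on single animals: with 1 animal left out, the genes called numbered 0 to 1107 at day 0 and 7 to 425 at day 13, and between COMBO and INR at day 0 they numbered 0 to 391. The highest counts at day 0 came without BRD COMBO animal 16 and that at day 13 without healthy COMBO animal 3. Between COMBO and INR, 0.00528% were called at day 60 and 0% at the earlier days. Between AAC and INR, 0.0422% were called at day 13, 0.0106% at day 28 and 0% at days 0, 45 and 60.

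The smallest adjusted value belonged to FDFT1 between AAC and COMBO at day 13. FDFT1 had a lowest, median and highest level of 84.6, 93.5 and 103.544 CPM in the 7 AAC libraries of that day and of 68.01, 78.1 and 84.1 CPM in the 7 COMBO libraries. The groups did not overlap, and the log2 fold change was 0.26 (SE 0.119, edgeR FDR 0.322). The gene was picked here for its adjusted value, and how many of all genes had such groups apart was not counted. At day 0 FDFT1 stood at 49.01, 53 and 85.4 CPM in AAC and 38.99, 51.9 and 60.8 CPM in COMBO, and the groups overlapped. The AAC library removed by the authors belonged to day 13.

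The rest of the synthesis pathway was read from 15 further enzymes. Between day 0 and day 13, 11 of the 15 were called higher and none lower, with a median log2 fold change of 0.26. For this list and those below, 17.3% of all genes were called higher and 17.1% lower between these days. MSMO1, which removes methyl groups from the sterol ring, rose by 0.61 (SE 0.057), CYP51A1, which removes the first of them, by 0.55, and LSS, which closes the sterol ring, by 0.52. At the foot of the range MVK (mevalonate kinase) rose by 0.17 and HSD17B7 by 0.16. The members that were not called were MVD (0.03), TM7SF2 (-0.27, 95% interval -1.13 to 0.58), LBR (-0.01) and EBP (-0.06). LBR is also a structural protein of the nuclear envelope. At day 60 against day 0 the count was again 11 higher and none lower, where 15.6% of all genes were called higher. Between days 45 and 60 none was higher and 4 were lower, where 3.41% of all genes were called lower. Between days 13 and 28 the 3 genes of smallest p were LSS (0.18, edgeR FDR 0.0429), MSMO1 (0.17, edgeR FDR 0.163) and PMVK, phosphomevalonate kinase (0.15, edgeR FDR 0.175), of which LSS was called.

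**Figure D4:**
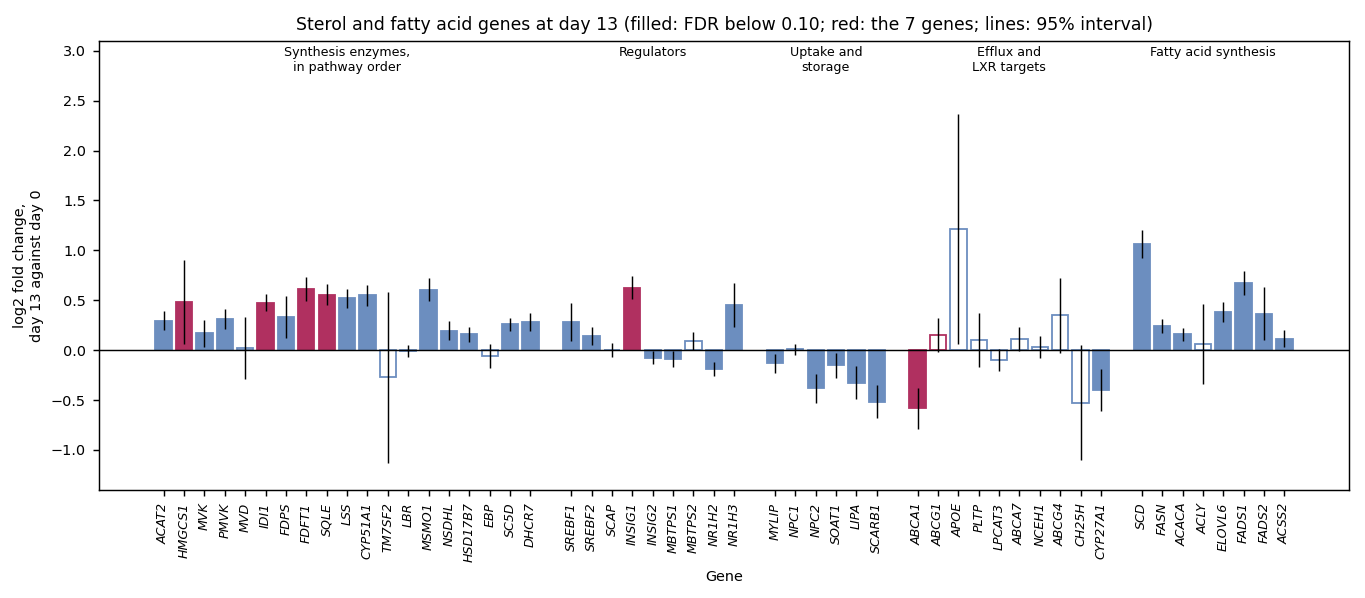
Log2 fold change between day 0 and day 13 in all cattle (vertical axis) for genes of the sterol and fatty acid lists (horizontal axis), with 95% intervals, filled bars for an FDR under 0.1 and the 7 genes in red. Most synthesis enzymes and fatty acid genes stand above 0, and most uptake and storage genes at or below it.

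Among 8 regulators, 3 were called higher and 3 lower at day 13. SREBF2, the gene of the SREBP that drives sterol synthesis, rose by 0.14 and SREBF1, the gene of the form that drives fatty acid synthesis, by 0.28. NR1H3, the gene of LXR alpha, rose by 0.45, and NR1H2, the gene of LXR beta, fell by 0.19. INSIG2, a relative of INSIG1 that also retains SREBP, fell by 0.07 and MBTPS1, a protease that releases SREBP, by 0.09. SCAP (0.003) and MBTPS2 (0.09) were not called. None of the 8 was called between days 13 and 28, when the genes of smallest p were SREBF2 (0.14), MBTPS1 (0.08) and INSIG2 (-0.05).

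Of 6 measured genes of uptake and storage, none was called higher and 5 lower at day 13. SCARB1, the receptor for high-density lipoprotein, fell by 0.52, NPC2, which moves cholesterol out of the lysosome, by 0.38, and LIPA, the lysosomal lipase, by 0.32. SOAT1, which esterifies cholesterol for storage, fell by 0.15 and MYLIP, a ubiquitin ligase, by 0.13. The remaining gene, NPC1, which works with NPC2 in the lysosome, stood at 0.01. Between days 13 and 28 none was called, and NPC1 (0.09), SOAT1 (-0.10) and NPC2 (0.10) had the smallest p.

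Besides ABCA1 and ABCG1, 8 genes of efflux or known LXR control were measured. At day 13 none was called higher and 1 lower, CYP27A1, a sterol hydroxylase (-0.40, edgeR FDR 0.00271). The median of the 8 was 0.07. APOE had the largest estimate, 1.21, with a 95% interval of 0.06 to 2.37, and was not called (edgeR FDR 0.111), at medians of 0.045 and 0.081 CPM on the 2 days and 3.4 CPM in its highest library of day 13. ABCG4, a relative of ABCG1, stood at 0.35 and was not called (edgeR FDR 0.16). Between days 13 and 28 none of the 8 was called, and LPCAT3 (0.14), ABCG4 (-0.38) and NCEH1 (0.06) had the smallest p.

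Fatty acid synthesis shares its regulators with sterol synthesis. Of 8 genes, 7 were called higher at day 13 and none lower, with a median of 0.30. SCD, the stearoyl-CoA desaturase, had the largest change at 1.07 (edgeR FDR 5.05e-22), followed by FADS1, a desaturase of polyunsaturated chains, at 0.68 and ELOVL6, an elongase, at 0.38. ACLY (0.06) was not called. Between days 13 and 28, 5 of the 8 were called higher, where 1.04% of all genes were called in either direction, with FADS1 at 0.32 (edgeR FDR 0.00103), SCD at 0.29 (edgeR FDR 0.0171) and ELOVL6 at 0.20 (edgeR FDR 0.042).

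Markers of blood cells moved over the interval from day 0 to day 13, in which 17.3% of all genes were called higher and 17.1% lower. Between day 0 and day 13, 4 of 6 monocyte markers were called lower with a median of -1.04, and their summed level went from a median of 1071 CPM (range 512 to 2838) to 650 CPM (range 474 to 996). CD14, the endotoxin co-receptor, fell by 1.15 and CD163, the haemoglobin scavenger receptor, by 1.60. FCGR1A, one of the 6, had a median under 1 CPM at both days (0.74 and 0.398 CPM). Of 5 measured neutrophil markers, 3 were called lower, and the sum went from 918 CPM (range 537 to 4648.5) to 689 CPM (range 385 to 1239). All 5 measured platelet markers were called higher, with sums of 748 CPM (range 378 to 2332) and 1186 CPM (range 512 to 2264). Of 5 erythroid markers, 4 were called higher, and the sum went from 6.87 CPM (range 1.88 to 85.4) to 74.1 CPM (range 6.92 to 1085). The 8 T cell markers had 1 called higher and a median of -0.03, and the 6 B cell markers had 2 called higher and a median of 0.03. Of 5 NK and cytotoxic markers 1 was called higher and 2 lower, and of 5 markers of eosinophils and basophils 3 were called higher and 1 lower. The part of these changes in those of the 7 genes was not tested.

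How the 7 genes followed the summed markers was described over all libraries, which share animals and days. After the mean of each group and day was removed, ABCA1 had a Pearson's r of -0.06 with the summed monocyte markers and of -0.18 with the neutrophil markers. Over all libraries, days included, ABCA1 had an r of 0.29 with the monocyte markers. ABCG1 had an r of -0.43 with the monocyte markers and of -0.40 with the neutrophil markers after group and day means were removed. On that scale it also had -0.41 with the NK and cytotoxic markers. With the eosinophil and basophil, platelet and erythroid markers it had -0.25, -0.24 and -0.21, and with the B cell and T cell markers 0.26 and 0.02. For SQLE and IDI1 the r with the monocyte markers was -0.47 and -0.50 over all libraries and -0.04 and -0.08 after group and day means were removed. For FDFT1 and INSIG1 it was 0.14 and 0.28 after the means were removed. SQLE, IDI1, FDFT1 and INSIG1 had r of 0.27 to 0.33 with the eosinophil and basophil markers on that scale, SQLE and FDFT1 had 0.26 and 0.28 with the T cell markers, and INSIG1 had -0.28 with the B cell markers. With the erythroid markers SQLE had 0.44 over all libraries and 0.02 after the means were removed.

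The 7 genes fell into sets by how they varied together. SQLE, IDI1, FDFT1 and INSIG1 had Pearson's r of 0.87 to 0.94 with one another over all libraries and of 0.61 to 0.88 after the mean of each group and day was removed, so that animals high in one were high in the others on the same day. HMGCS1 had r of 0.34 to 0.47 with these 4 genes over all libraries and 0.15 to 0.35 within groups and days. ABCA1 and ABCG1 had an r of 0.49 over all libraries and 0.60 within groups and days. Between ABCA1 and the 4 genes r lay between -0.54 and -0.45 over all libraries and between -0.40 and -0.18 within groups and days. Between ABCG1 and the 4 genes it lay between -0.12 and -0.04 over all libraries and between -0.46 and -0.29 within groups and days.

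**Figure D5:**
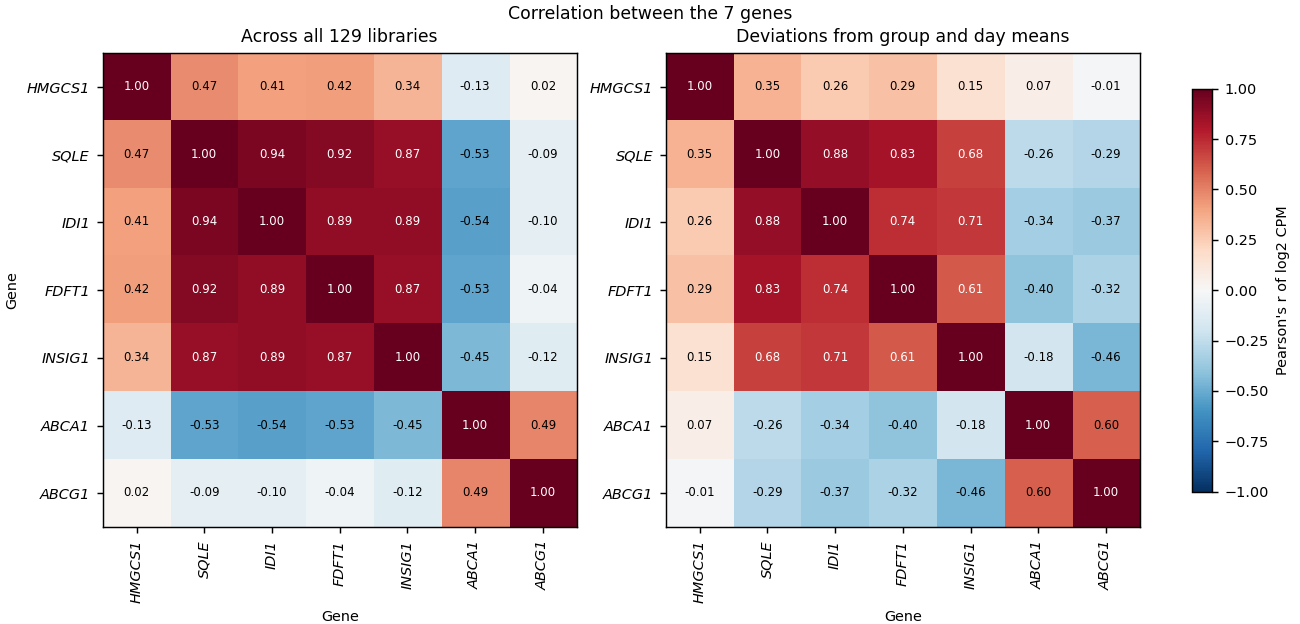
Pearson's r of log2 CPM between each pair of the 7 genes over all libraries (left) and after the mean of each group and day was removed (right), in colour from -1 to 1 with the value in each cell. SQLE, IDI1, FDFT1 and INSIG1 form one block of high values, and ABCA1 and ABCG1 another.

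Over all tested genes, the 4 closest to the mean of the 5 synthesis genes were MSMO1 (Pearson's r 0.94 over all libraries), LSS (0.92), SCD (0.86) and SC5D (0.85). Within groups and days the 3 closest were MSMO1 (0.89), LSS (0.80) and SC5D (0.76). The genes closest to the mean of ABCA1 and ABCG1 were ZC3H4 (0.61), PREPL (0.59), ZNF770 (0.59), RBM12 (0.58) and SUZ12 (0.58), and within groups and days ADD3 (0.74), RAD54L2 (0.73), SUZ12 (0.72), ARHGAP19 (0.71) and SMC3 (0.69). None of these was in the lists of efflux or synthesis, whereas all those named for the synthesis genes were in the lists of sterol or fatty acid synthesis.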

How the data were processed

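Whole blood RNA of 26 steers, sampled at 5 days, was grouped by the labels for disease, supplement and day, with 59 healthy and 70 BRD libraries. Per the labels and the paper's methods, reads were trimmed (Trimmomatic 0.39) and aligned (HISAT2, genome ARS-UCD1.3), transcripts were assembled (StringTie 2.2.0), and gene counts were derived from coverage by prepDE at a read length of 150. The deposited values are raw counts of 32395 genes, and genes with shared sequence may be split or merged. Gene lengths were not used here, so levels are not compared between genes.

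CPM with TMM factors and all tests were computed in R 4.3.3 with edgeR 4.0.16 (filterByExpr over the 30 groups, common dispersion, quasi-likelihood F-test, Benjamini-Hochberg adjustment within a comparison). Once group means were removed, libraries of one animal had a median correlation of 0.371 (above 0.1 in all 26 animals) and libraries of different animals and days of -0.0101. Day comparisons therefore had the animal as a block (50 terms, dispersion of 0.0793 from 1000 genes spaced over abundance), and comparisons between animals used the 30 means (dispersion 0.152). Log2 CPM for correlations had a prior count of 2. Alternatives were RLE factors, a trended dispersion, DESeq2 1.42.0, limma 3.58.1 with voom, other filters on low counts, an FDR of 0.05, fits without the block, subsets of days, labels or pens, and each animal left out. The scripts were tested on simulated data.

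The 7 genes, the gene lists and the cell markers were chosen with earlier results of these data known. The authors listed genes that change over time in the healthy libraries, separately for each supplement group. Between them these lists hold FDFT1, IDI1, INSIG1, SQLE and ABCA1. The paper gives cholesterol and steroid biosynthesis among the main enrichments of the INR genes whose trend stabilized. Besides the 7 genes, the rule named the 3 genes of smallest p in each list between days 0 and 13 and between days 13 and 28, and the 5 genes closest in pattern by Pearson's r. Some genes of the lists are not reported here, were left out of the list counts, and the next gene by p took their place. Further list members were named after their values were seen. STARD4, CSF3R, GNLY and GP1BB matched no symbol. No sequences are shown, since none were used here.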

Additional observations from a re-analysis of the deposited data

Results flagged for a closer look

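Within the groups of 4 to 7 libraries of one label, supplement and day, 168 sets of values (24 groups and 7 genes) were tested for a library that stands apart by Dixon's test at 95%. Chance alone marks about 1 in 20 such sets, and 11 libraries were marked. BRD COMBO at every day and healthy AAC at day 13 held 3 libraries and were not tested.

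Animals 40 and 43, both BRD INR, held 5 of the 11 values. At day 0 animal 43 had 29.74 CPM of SQLE (others 52.7 to 60.8) and 25.4 CPM of IDI1 (others 34.5 to 41.1), and at day 45 it had 61.9 CPM of ABCG1 (others 23.1 to 39.32). At day 45 animal 40 had 153.9 CPM of SQLE (others 83.2 to 104.71) and 113.3 CPM of INSIG1 (others 58.1 to 79.2).

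Healthy AAC animal 48 had 123.8 CPM of SQLE at day 45 (others 85.1 to 89.4) and 23.4 CPM of ABCA1 at day 60 (others 34.9 to 36.8). Healthy COMBO animal 3 had 44.04 CPM of ABCA1 at day 28 (others 26 to 28.8) and 22.1 CPM of HMGCS1 at day 60 (others 45.1 to 48.2). ABCA1 also stood apart in BRD AAC animal 31 at day 45, at 38.2 CPM (others 28.4 to 29.4), and in BRD INR animal 17 at day 13, at 61.3 CPM (others 24.6 to 37.1).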

How the results depend on the processing

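The rises of SQLE, IDI1, FDFT1 and INSIG1 and the fall of ABCA1 between days 0 and 13 and between days 0 and 60 in all cattle kept their direction and their call in all 35 alternatives, and no called value of the 7 genes changed its sign in any alternative. HMGCS1 at day 13 had an FDR under 0.1 in 21 of 35, over which its log2 fold change ran from 0.34 to 0.57 and its FDR from 0.0466 to 0.284. Between days 13 and 28 in all cattle, 0 of the 7 genes became 1 with DESeq2 and 1 with the libraries of the compared days alone (INSIG1 in both), and 0 to 3 with each animal left out, the 3 without BRD animal 43 and 1 or 2 each without BRD animals 18 and 40 and healthy animal 6. Between days 28 and 45, 1 gene became 2 with the libraries of the compared days alone, 0 without the replicate block (ABCG1, FDR 0.237), and 0 to 2 with each animal left out (0 without BRD animal 18 and 2 without BRD animal 54). In BRD cattle, 1 gene became 0 between days 28 and 45 at an FDR of 0.05 and without the replicate block (ABCG1, FDR 0.432). Between days 45 and 60 in BRD cattle, 1 gene became 0 at an FDR of 0.05, with RLE factors, with no filter on low counts, without the replicate block and without the day 60 library of animal 40, with an FDR of SQLE between 0.101 and 0.308 in the last 4. The fall of ABCA1 between days 0 and 13 in healthy cattle was not called without the replicate block (FDR 0.253). The cause of these changes was not tested. None of the 7 genes was called between labels, between supplements or for the label difference in any alternative run, including the pens with both labels and the healthy cattle alone. Over all genes, the reported counts of 6507, 196, 5233 and 1555 between successive days in all cattle became 3995, 31, 2601 and 314 without the replicate block, and DESeq2 gave 535 in place of 196 between days 13 and 28. Between labels at day 0 the count of 3 became 1325 in the pens with both labels, which held no COMBO cattle. Leaving out animals was not run for the changes within a label or for their difference. At these depths the lowest level of any of the 7 genes in a library was 7.32 CPM.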
